A study of Mus musculus with 12 samples.

Results

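The translation initiation and elongation factors were taken as every row of the mouse count table whose symbol begins with Eif1 to Eif6 or with Eef1 or Eef2. The 4 eIF2α kinases, Eif2ak1 to Eif2ak4, and pseudogenes were left out. The rule gave 64 of 17365 genes, and 60 of them had enough counts to be among the 13312 genes tested. It used no measured value. All 64 were placed by identifier on the mouse genome (GRCm38, GENCODE vM21).

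Adult neural stem cells (NSCs) from the subventricular zone of 6-8-week-old WT mice were kept for 3 days at low density in 1 of 3 media. EGF/FGF held proliferating cells, BMP (BMP4 alone) gave the dormant d-qNSCs, and BMP/FGF (BMP4 with FGF2) gave the primed p-qNSCs, each factor at 10 ng/ml. Each condition had 2 replicates of the ANS4 line (MF1 strain) and 2 of the BL6 line, so 4 libraries, all below passage 10. The labels call them biological replicas without saying whether cultures were separate, so that the p-values measure the spread between these samples, which may be technical, and each strain is represented by 1 line.

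Translation begins when a small ribosomal subunit, loaded with initiator tRNA by eIF2 and accompanied by eIF1, eIF1A, eIF3 and eIF5, is recruited to a capped mRNA by eIF4F. In eIF4F, eIF4E binds the cap, eIF4A unwinds RNA and eIF4G holds them together, while 4E-BPs sequester eIF4E and eIF2B recharges eIF2 with GTP. During elongation eEF1A brings aminoacyl-tRNA and is itself recharged by the eEF1B subunits, and eEF2 moves the ribosome along the message. Low protein synthesis is a known property of quiescent adult NSCs.

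Library totals ranged from 18069052 to 19451818 estimated counts. Over all tested genes together, replicates differed by more than the noise of counting alone, but this was not worked out for each member. Levels are CPM, a gene's counts as a rate over all counts of its library, scaled by TMM, a correction for library composition, and a member was called at an adjusted p (FDR) under 0.05 in edgeR's quasi-likelihood test. As a check of the labels, 6 proliferation markers were summed: EGF/FGF libraries gave 2237-2686 CPM, BMP libraries 377-560 and BMP/FGF libraries 272-288, and 8 neural stem cell and astroglial markers were all measured and none was at 0. The 2 BL6 replicates in BMP stood further apart than any other pair, with a chi-square per gene of 12.2 against 2.12 to 4.68 in the other 5 pairs, and the counts of members are given with the range obtained when a library was left out.

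Together, the 64 genes took 2.56% ± 0.083 of the library in EGF/FGF (SD, n = 4), 1.63% ± 0.067 in BMP and 1.68% ± 0.043 in BMP/FGF. The lowest EGF/FGF library, at 2.48%, lay above the highest quiescent one, at 1.72%. Eef1a1, the eEF1A of most tissues, took more of the library than any other member, and without it the shares were 1.65% ± 0.017, 1.13% ± 0.034 and 1.11% ± 0.011. These are shares of sequenced RNA: the files do not give RNA per cell, and in bulk samples fewer cells of a type and less RNA per cell cannot be told apart.

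**Figure D1:**
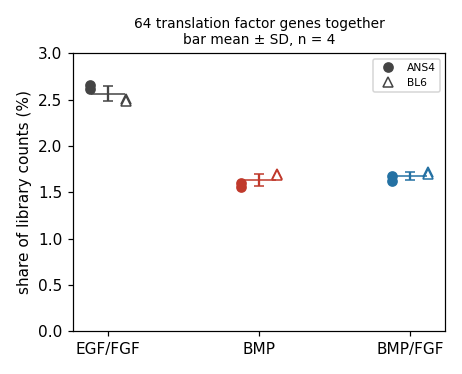
Share of each library's counts (percent, y axis) taken by the 64 genes together in the 3 media, with ANS4 as filled circles, BL6 as open triangles, and bars for the mean ± SD of 4 libraries. The EGF/FGF libraries lie between 2.48% and 2.65%, and the 8 quiescent libraries between 1.56% and 1.72%.

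In BMP against EGF/FGF, 52 of the 60 tested members fell and 5 rose, and 3 passed the test in neither direction. Over all genes tested, 38.8% fell and 40.8% rose, against 86.7% and 8.33% of the members. The median log2 fold change of the members was -0.49, against 0.02 for all genes. In BMP/FGF against EGF/FGF, 46 members fell, 6 rose and 8 passed in neither direction, where 38% of all genes fell and 40.9% rose, with a median of -0.37 against 0.02. The 2 comparisons share the EGF/FGF libraries. When each library was left out in turn, 47 to 52 members fell and 4 or 5 rose in BMP, and 42 to 46 fell and 4 to 6 rose in BMP/FGF. Most falls were moderate: 9 members fell by more than 1 on the log2 scale in each medium, and only Eef1b2, Eif2s1 and Eif5a in BMP and Eif5a in BMP/FGF passed the study's threshold of 1.5.

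**Figure D2:**
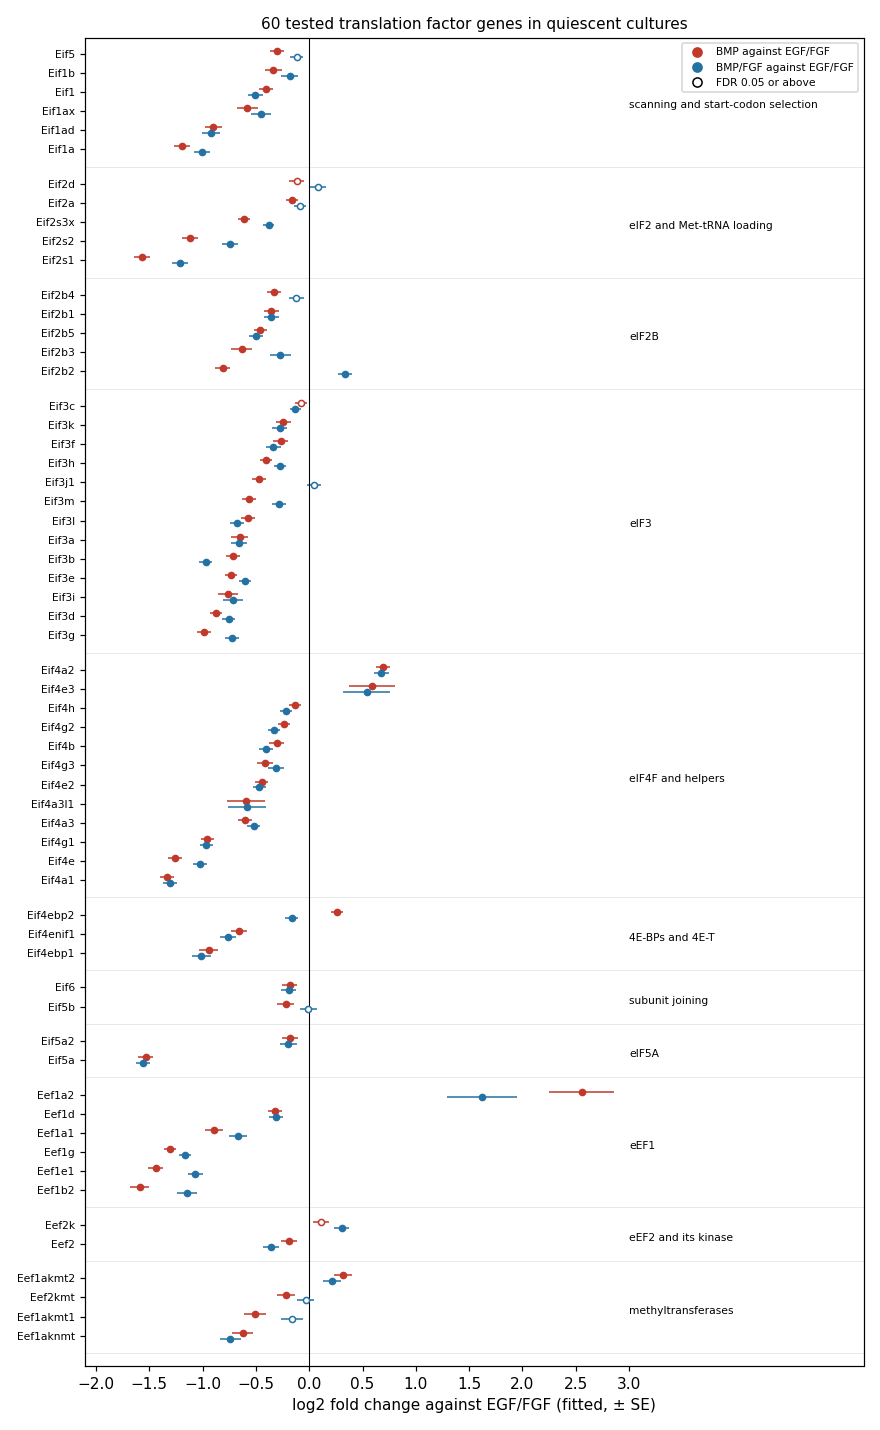
Fitted log2 fold change (x axis, ± SE) of each of the 60 tested genes (y axis, grouped by role) in BMP, red, and BMP/FGF, blue, against EGF/FGF, with open points at FDR of 0.05 or above. Most points lie left of 0, and the called points of Eef1a2, Eif4a2, Eif4e3 and Eef1akmt2 lie right of it in both media.

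The eEF1 group held the largest fall in BMP, that of Eef1b2, and the largest rise in both media, that of Eef1a2. Its 6 tested members are the tRNA carriers Eef1a1 and Eef1a2, the eEF1B subunits Eef1b2, Eef1d and Eef1g, and Eef1e1, which belongs to the tRNA synthetase complex in spite of its name. In both media 5 of them fell and only Eef1a2 rose. Eef1a1 stood at 9916 and 9930 CPM in the ANS4 replicates and 8516 and 8295 in the BL6 replicates in EGF/FGF. It stood at 4600, 4842, 5042 and 5264 CPM in BMP and at 5656, 5221, 6303 and 5911 in BMP/FGF, in the same order of lines. Every quiescent library was below every EGF/FGF library, with a fall of 0.89 on the log2 scale in BMP (SE 0.083, edgeR FDR 1.62e-08) and of 0.67 in BMP/FGF (SE 0.083, FDR 7.88e-07).

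The fall of Eef1a1 differed between the lines in most but not all fits. Its level in EGF/FGF was lower in BL6 than in ANS4 by 0.24 on the log2 scale (SE 0.056, edgeR FDR 0.0169), whereas in BMP and BMP/FGF the BL6 libraries were the higher ones. The fall in BMP was 1.07 in ANS4 and 0.72 in BL6, a difference of 0.37 (SE 0.080, interaction FDR 0.00854), and in BMP/FGF it was 0.87 and 0.48, a difference of 0.41 (SE 0.080, FDR 0.00737). The difference in BMP did not pass without ANS4 replicate 1 in BMP (0.32, FDR 0.0546), nor that in BMP/FGF without ANS4 replicate 2 (0.34, FDR 0.0652) or BL6 replicate 1 (0.36, FDR 0.0643) in BMP/FGF. The level difference in EGF/FGF was lost in 4 of 12 fits with a library left out and with the replicate block (FDR 0.0897). It was also lost with limma on the deposited rlog values (FDR 0.060). Of its 31-base stretches, 51.5% also occur in transcripts of other annotated genes, so its level could hold reads of those and theirs of it.

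Eef1a2, the eEF1A form that neurons and muscle use, was low everywhere and rose. It stood at 0.414, 0.930, 0.625 and 1.03 CPM in EGF/FGF, from 8 to 20 counts, at 6.35, 5.92, 2.49 and 3.49 in BMP and at 1.72, 2.64, 2.57 and 2.35 in BMP/FGF. Both quiescent groups were clear of the EGF/FGF group, with a log2 fold change of 2.56 in BMP (SE 0.30, edgeR FDR 4.03e-07) and 1.62 in BMP/FGF (SE 0.33, FDR 0.000208). Even so, Eef1a1 remained far above it: per kilobase of transcript, taking the median transcript length, Eef1a1 was at 5812 CPM and Eef1a2 at 2.19 in BMP. No 31-base stretch of Eef1a2 is shared with another gene.

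The summed level of young neuron genes was ordered over the 3 media as Eef1a2 was. The 14 markers of neuroblasts and young neurons, all measured and none at 0 over a condition, had sums of 879-925 CPM in EGF/FGF, 1696-2651 in BMP and 1169-1276 in BMP/FGF. Of the 12 tested, 10 rose and 1 fell in BMP, and 9 rose and 3 fell in BMP/FGF. Within BMP, however, the marker sum was 1792 and 1696 CPM in ANS4 and 2651 and 2567 in BL6, while Eef1a2 was higher in ANS4. The part of such cells in the Eef1a2 level was not tested.

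The bases around the annotated starts of the 2 eEF1A genes are shown because their transcripts moved in opposite directions, 30 bases before and 30 after the start (RefSeq, GRCm38.p6, read 5′ to 3′ along the gene). Capitals mark a run that meets the description of a 5′ terminal oligopyrimidine (TOP) start, a C followed by at least 4 of C or T within 10 bases of the start, the element by which many translation-machinery mRNAs respond to growth signals. Eef1a1 lies at chr9:78481695-78481754 on the minus strand, within the gene at chr9:78478449-78489151, and Eef1a2 at chr2:181156986-181157045 on the minus strand.
Eef1a1: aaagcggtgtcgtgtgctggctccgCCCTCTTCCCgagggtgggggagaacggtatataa
Eef1a2: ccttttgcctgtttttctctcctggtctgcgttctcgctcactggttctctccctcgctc
Eef1a1 held a run of 10 and Eef1a2 none by this definition. The Eef1a2 letters do hold runs of C and T more than 10 bases from the start, among them ctctccctc. The Eef1a1 run begins 5 bases before the annotated start and lies before the letters tatataa that end its window. It is therefore not shown to be part of the mRNA. Whether any of these runs stands at the 5′ end of the mRNA was not tested.

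The eEF1B subunits and Eef1e1 fell by unequal amounts. Eef1b2, the nucleotide exchange subunit, stood at 342.5, 339.9, 384.5 and 361 CPM in EGF/FGF, 125, 128, 124 and 96.3 in BMP and 166, 137.5, 164 and 178 in BMP/FGF. Its fall of 1.59 in BMP was the largest of any member (SE 0.091, edgeR FDR 2.01e-11), against 1.15 in BMP/FGF (SE 0.090, FDR 1.68e-09). Eef1g, the scaffold subunit, had 781 ± 29 CPM in EGF/FGF (SD, n = 4), 316 ± 21 in BMP and 347 ± 4.6 in BMP/FGF. Eef1d, a second exchange subunit, fell only by 0.32 and 0.31, from 160.1 ± 7.2 CPM to 128 ± 11 and 129 ± 2.9. Eef1e1 fell from 44.4 ± 2.4 CPM to 16.4 ± 0.65 and 21.2 ± 1.1. Eef1g shares 47.6% of its 31-base stretches with other genes, and Eef1b2 13.2%.

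Eef2 stood at 2080, 2340, 2003 and 1931 CPM in EGF/FGF, 1635, 1864, 1883 and 1961 in BMP and 1622, 1515, 1727 and 1657 in BMP/FGF. The BMP libraries overlapped the EGF/FGF ones and the BMP/FGF libraries did not, with falls of 0.19 (SE 0.076, edgeR FDR 0.0315) and 0.36 (SE 0.076, FDR 0.000328). The fall of Eef2 in BMP was 0.34 in ANS4 alone and did not pass in BL6 alone (log2 fold change -0.05, FDR 0.461). Eef2k, the kinase that inhibits eEF2, did not pass the test in BMP (log2 fold change 0.11, FDR 0.167) and rose by 0.30 in BMP/FGF (SE 0.072, FDR 0.000892), where its 4 libraries, at 127 to 137 CPM, were all above those of EGF/FGF, at 86.8 to 118. With limma on the deposited rlog values this rise did not pass (FDR 0.228).

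**Figure D3:**
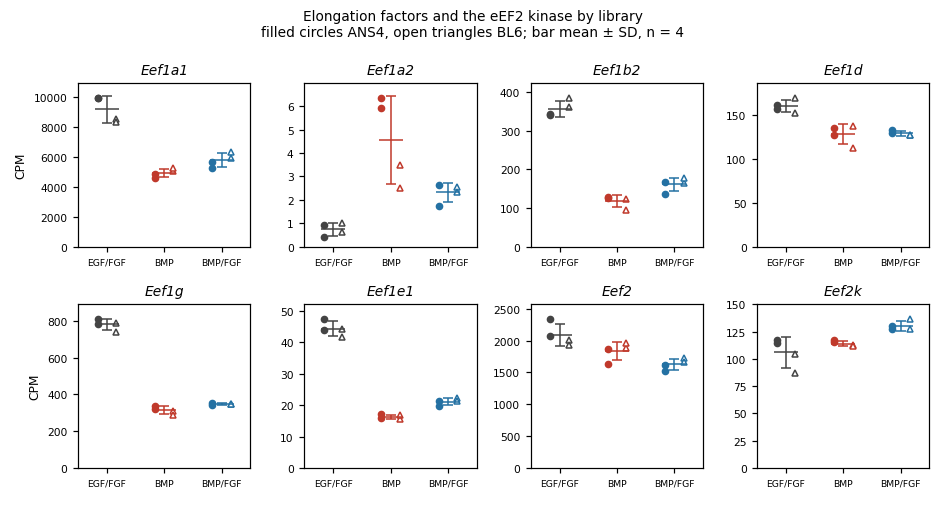
Level in CPM (y axis from 0, own scale per panel) of 8 elongation genes in the 3 media, with filled circles for ANS4, open triangles for BL6 and bars for the mean ± SD of 4 libraries. Eef1b2, Eef1g and Eef1e1 lie below every EGF/FGF library in every quiescent library, the BMP libraries of Eef2 overlap those of EGF/FGF, and Eef1a2 is near 1 CPM or below in EGF/FGF.

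The start regions of Eef1b2 and Eef2 are set beside each other because in BMP the former had the largest fall of the elongation factors and the latter the smallest of those that passed. Eef1b2 is at chr1:63176801-63176860 on the plus strand and Eef2 at chr10:81176601-81176660 on the plus strand.
Eef1b2: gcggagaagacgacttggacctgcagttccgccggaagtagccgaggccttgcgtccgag
Eef2: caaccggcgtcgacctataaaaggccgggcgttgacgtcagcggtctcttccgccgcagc
Neither held a run by the definition above, although both genes are widely described as TOP mRNAs. The Eef2 letters hold a run, ctcttcc, more than 10 bases past the annotated start and so outside the definition. Annotated starts can lie some bases from the start used in a given cell. A run that the definition finds or misses therefore does not tell whether the mRNA begins with one. Among the 49 members with a window, 16 (32.7%) held such a run, as did 34.4% of the 27025 genes with windows, and a run of 8 or more was in 18.4% of members and 9.43% of genes. The genes with windows include many that were not tested here. The 15 tested members with a run had a median log2 fold change of -0.61 in BMP and the 33 without one of -0.36. Of a list of 9 translation factors widely described as TOP mRNAs, all 9 fell in both media, with a median of -0.40 in BMP and -0.41 in BMP/FGF. Of all tested members, 86.7% fell in BMP, with a median of -0.49, and 76.7% in BMP/FGF, with a median of -0.37. Whether a TOP run is tied to the size of a fall was not tested.

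Eif5a, whose hypusine-bearing product helps ribosomes through difficult stretches, had the largest fall in BMP/FGF and the third largest in BMP. It stood at 871, 943, 1004 and 933 CPM in EGF/FGF, 335, 333.5, 302 and 325 in BMP and 340.4, 324, 289 and 322 in BMP/FGF. It was 2.90-fold lower in BMP (edgeR FDR 4.61e-13) and 2.94-fold lower in BMP/FGF (FDR 3.82e-13), with no overlap with EGF/FGF. Its paralogue Eif5a2 fell by 0.18 (FDR 0.0404) and 0.19 (FDR 0.0254). In BMP the call of Eif5a2 was lost in 5 of 10 other settings, with ANS4 alone giving -0.03, and in 5 of the 12 fits with a library left out. In BMP/FGF it was lost in BL6 alone (FDR 0.0604) and in 3 of the 12 fits with a library left out (FDR up to 0.0904).

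The RNA helicases of eIF4F moved in opposite directions. Eif4a1 stood at 1443, 1448, 1357 and 1443 CPM in EGF/FGF, 533, 527, 621 and 579.8 in BMP and 542, 562, 594 and 609 in BMP/FGF. Eif4a2, a close paralogue of the same activity, stood at 171, 194.5, 201.5 and 211 CPM in EGF/FGF, 314, 315, 340.2 and 287 in BMP and 313, 296, 302 and 329.9 in BMP/FGF. For both genes every quiescent library was clear of every EGF/FGF library. Eif4a1 fell by 1.33 (SE 0.063, edgeR FDR 1.29e-12) and 1.30 (SE 0.062, FDR 1.76e-12), and Eif4a2 rose by 0.69 (SE 0.068, FDR 3.61e-08) and 0.68 (SE 0.068, FDR 5.62e-08). Per kilobase of the median transcript, Eif4a1 was at 1889 CPM and Eif4a2 at 252.5 in EGF/FGF, and in BMP they were at 751 and 408. With the longest transcript in its place these levels were 449 and 71.8, and 178.5 and 116. Eif4a3, which serves the exon junction complex, fell by 0.60 and 0.52, and the near-identical Eif4a3l1, at 4.22 CPM in EGF/FGF, by 0.59 and 0.58. Eif4a3l1 shares 60.8% of its 31-base stretches with other genes, Eif4a3 31.2%, Eif4a1 31.1% and Eif4a2 19.6%.

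The start regions of the 2 helicase genes are given for the same reason as those of eEF1A. Eif4a1 is at chr11:69672394-69672453 on the minus strand and Eif4a2 at chr16:23107438-23107497 on the plus strand.
Eif4a1: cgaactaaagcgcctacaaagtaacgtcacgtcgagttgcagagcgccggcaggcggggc
Eif4a2: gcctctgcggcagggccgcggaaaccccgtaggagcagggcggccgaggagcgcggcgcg
Neither held a TOP run within 10 bases of the start.

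The cap-binding genes also moved in both directions, although the one that rose, Eif4e3, was at a low level. Eif4e stood at 269.9, 254, 292 and 278.9 CPM in EGF/FGF, 127, 115, 105 and 112 in BMP and 135, 140.5, 136 and 127 in BMP/FGF, and fell by 1.26 (SE 0.066, edgeR FDR 6.68e-12) and 1.02 (SE 0.066, FDR 1.1e-10). Eif4e2, a repressive cap binder, fell by 0.45 and 0.47. Eif4e3 stood at 1.92, 1.19, 2.19 and 2.89 CPM in EGF/FGF, 3.37, 2.60, 3.37 and 2.92 in BMP and 3.45, 2.69, 2.35 and 3.30 in BMP/FGF, and the groups overlapped. Its rises of 0.59 (edgeR FDR 0.0184) and 0.54 (FDR 0.0309) rested on 23 to 65 counts and did not pass in BL6 alone (FDR 0.289 and 0.632). The call of Eif4e3 in BMP was also lost without ANS4 replicate 2 in EGF/FGF (FDR 0.0783) or ANS4 replicate 1 in BMP (FDR 0.0627). The one in BMP/FGF was lost in 5 of the 12 fits with a library left out, namely without each EGF/FGF library except BL6 replicate 2, and without ANS4 replicate 1 or BL6 replicate 2 in BMP/FGF.

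The scaffolds of eIF4F fell by different amounts. Eif4g1 had 803 ± 46 CPM in EGF/FGF (SD, n = 4), 414 ± 8.7 in BMP and 412 ± 13 in BMP/FGF, a fall of 0.96 in both media (edgeR FDR 5.27e-11 and 5.15e-11). Eif4g2, which lacks the eIF4E-binding part and serves cap-independent initiation, went from 2036 ± 33 CPM to 1725 ± 30 and 1623 ± 40, falls of 0.24 and 0.33. Eif4g3 fell by 0.42 and 0.31. The helicase cofactors Eif4b and Eif4h fell by 0.30 and 0.41, and by 0.13 and 0.22. In all, 10 of 12 tested eIF4F genes and helpers fell and 2 rose in each medium.

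The inhibitors of eIF4E separated too. Eif4ebp1 stood at 43.1, 46.0, 49.9 and 44.1 CPM in EGF/FGF, 21.9, 21.3, 22.1 and 30.2 in BMP and 20.7, 22.1, 23.6 and 24.4 in BMP/FGF, falling by 0.94 (SE 0.088, edgeR FDR 1.74e-08) and 1.01 (SE 0.088, FDR 7.4e-09). Eif4ebp2, the 4E-BP that predominates in brain, stood at 88.7, 87.8, 99.1 and 87.8 CPM in EGF/FGF, 106, 104, 107 and 119 in BMP and 76.6, 82.1, 82.7 and 82.5 in BMP/FGF. It was the highest of the 3 media in BMP and the lowest in BMP/FGF, with no overlap between any 2 groups: it rose by 0.26 in BMP (SE 0.058, FDR 0.000466), fell by 0.17 in BMP/FGF (SE 0.059, FDR 0.0157), and was 0.43 lower in BMP/FGF than in BMP (SE 0.058, FDR 1.87e-05). The fall against EGF/FGF did not pass in BL6 alone (FDR 0.0544) or without BL6 replicate 1 in EGF/FGF (FDR 0.0613). Eif4enif1, which carries eIF4E into the nucleus and into P-bodies, fell by 0.66 and 0.76.

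**Figure D4:**
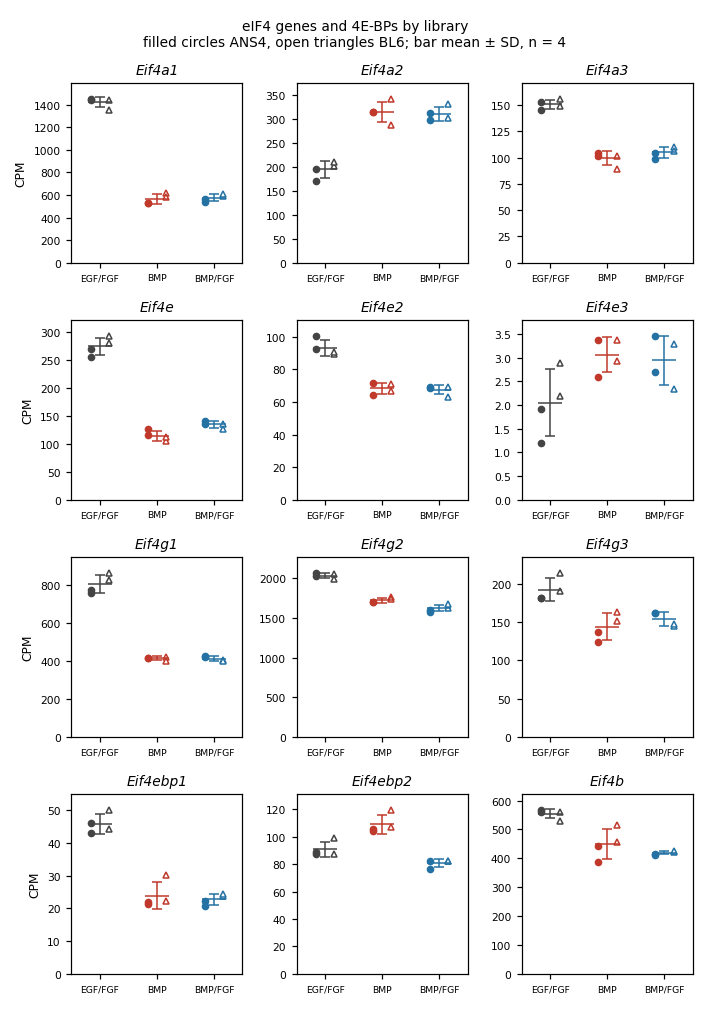
Level in CPM (y axis from 0, own scale per panel) of 12 eIF4 genes and eIF4E inhibitors in the 3 media, with filled circles for ANS4, open triangles for BL6 and bars for the mean ± SD of 4 libraries. Eif4a1 and Eif4a2 move in opposite directions in both quiescent media, and Eif4ebp2 is highest in BMP.

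The promoters of these genes were searched for the E-box CACGTG, the site of MYC and related factors, which reads the same on both strands. It was present in the 300-base window of 13 of 49 members (26.5%) and of 8.09% of genes with windows. Stretches of 30 bases, with the E-box in capitals, are shown from members that differ in their fall: Eif4e at chr3:138527192-138527221 (plus strand, 64 bases before the start), Eif4a1 at chr11:69672595-69672624 (minus strand, 189 before), Eif5a at chr11:69921443-69921472 (minus strand, 74 before one of its starts) and Eef2 at chr10:81176576-81176605 (plus strand, 43 before).
Eif4e: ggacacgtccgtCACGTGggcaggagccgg
Eif4a1: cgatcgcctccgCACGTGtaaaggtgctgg
Eif5a: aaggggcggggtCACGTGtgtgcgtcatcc
Eef2: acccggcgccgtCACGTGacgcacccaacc
The 13 members with an E-box had a median log2 fold change of -0.34 in BMP and the 35 tested without one of -0.47. Eef2k and Eif1b hold the motif too, 31 and 24 bases before a start.

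The subunits of eIF2 fell by unequal amounts in BMP and less in BMP/FGF. Eif2s1, the α subunit on which stress kinases act, stood at 184, 181, 194 and 199 CPM in EGF/FGF, 71.6, 65.5, 65.0 and 54.2 in BMP and 77.3, 81.3, 83.8 and 84.5 in BMP/FGF. Each of the 3 groups was clear of the others, with falls of 1.57 (SE 0.074, edgeR FDR 1.57e-12) and 1.22 (SE 0.073, FDR 4.6e-11). Eif2s2, the β subunit, fell by 1.12 and 0.75, and Eif2s3x, the γ subunit, which binds GTP and the tRNA, by 0.61 and 0.38. Eif2s3y, its Y-linked copy, had at most 1 count in any library. Eif2a and Eif2d, which can deliver initiator tRNA without eIF2, changed little: Eif2a fell by 0.16 in BMP (FDR 0.0195) and Eif2d did not pass against EGF/FGF in either medium (log2 fold change -0.12 and 0.08).

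All 5 subunits of eIF2B fell in BMP, by 0.33 to 0.81, and Eif2b2 then departed from the other 4 in BMP/FGF. Eif2b2, the β subunit of the regulatory part, stood at 137, 133, 105 and 98.1 CPM in EGF/FGF, 73.7, 72.7, 58.3 and 64.03 in BMP and 151, 151, 144.5 and 143.9 in BMP/FGF. The 3 groups did not overlap. It fell by 0.81 in BMP (SE 0.069, edgeR FDR 4.51e-09), rose by 0.33 in BMP/FGF against EGF/FGF (SE 0.067, FDR 0.000198) and was 1.14 higher in BMP/FGF than in BMP (SE 0.069, FDR 1.65e-09), or 2.21-fold. Against EGF/FGF in BMP/FGF, Eif2b1, Eif2b3 and Eif2b5 fell by 0.36, 0.27 and 0.50, and Eif2b4 gave -0.12 (FDR 0.114). Eif2b2 was 0.42 lower in BL6 than in ANS4 in EGF/FGF (SE 0.064, FDR 0.000839), and its rise in BMP/FGF was 0.16 in ANS4 and 0.49 in BL6 (interaction 0.35, SE 0.090, FDR 0.0329). That interaction was lost with the replicate block (FDR 0.0568), with library size only (FDR 0.0569) and in 8 of the 12 fits with a library left out, with values from 0.30 to 0.39. The gene lies on the plus strand at chr12:85219481-85226628, shares no exonic base with another annotated gene and no 31-base stretch with another transcript.

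The start region of Eif2b2, at chr12:85219451-85219510, is shown because no other eIF2B gene rose in BMP/FGF against EGF/FGF. The capitals are a TOP run of 8, whose first base lies 5 bases past the annotated start.
Eif2b2: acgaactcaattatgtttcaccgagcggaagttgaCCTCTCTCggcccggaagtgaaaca
Eif2b5, the catalytic subunit, holds a run of 14.

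**Figure D5:**
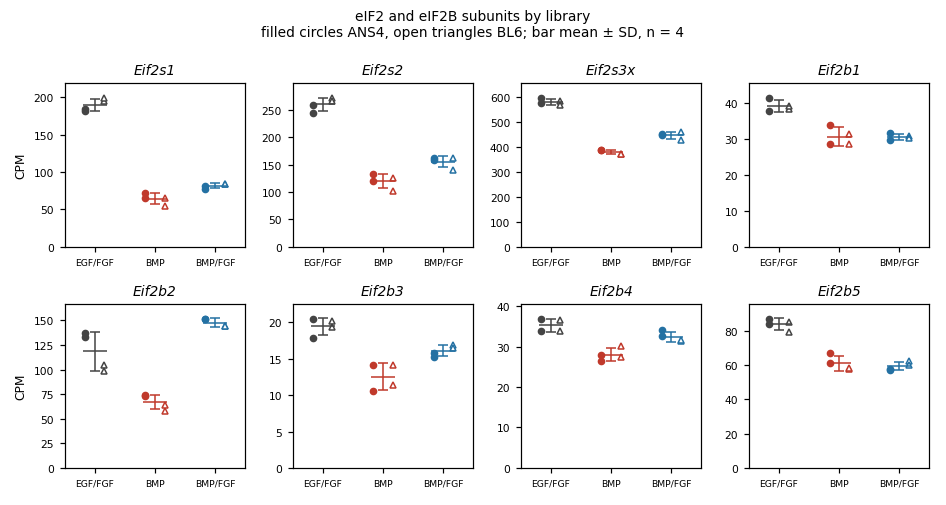
Level in CPM (y axis from 0, own scale per panel) of 3 eIF2 and 5 eIF2B subunits in the 3 media, with filled circles for ANS4, open triangles for BL6 and bars for the mean ± SD of 4 libraries. Eif2b2 is higher in every BMP/FGF library, 143.9 to 151 CPM, than in any EGF/FGF library, 98.1 to 137, while Eif2s1 is lowest in BMP.

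The 13 subunits of eIF3, the scaffold that holds the preinitiation complex together, fell by unequal amounts. In BMP 12 of 13 fell, from 0.24 for Eif3k to 0.99 for Eif3g, with a median of -0.57, and Eif3c did not pass (-0.08, FDR 0.215). In BMP/FGF 12 fell, with a median of -0.60 and the largest fall in Eif3b (0.97, SE 0.063, edgeR FDR 1.29e-10), and Eif3j1, the loosely held subunit that lies in the decoding centre, gave 0.05 (FDR 0.498). Eif3j1 stood at 127, 107, 122 and 126 CPM in EGF/FGF, 90.6, 86.2, 85.6 and 84.1 in BMP and 114, 128, 124 and 133 in BMP/FGF. Its BMP libraries lay below all others. It shares 53.6% of its 31-base stretches with other genes, most with the copy Eif3j2. That copy has no row in the count table, so its level cannot be set beside that of Eif3j1. Eif3j1 also overlaps Spg11 on the other strand. Eif3d overlaps an antisense gene over 43.3% of its exonic bases, and strand-specific counting is not stated in the sources used here.

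The 6 members grouped under scanning and start-codon selection all fell in BMP, with a median of -0.49. Eif1a fell by 1.20 (SE 0.075, edgeR FDR 6.62e-11) in BMP and 1.01 in BMP/FGF, while its X-linked paralogue Eif1ax fell by 0.58 and 0.45. Eif1, which guards start-codon choice, fell by 0.41 and 0.50, and Eif1b by 0.34 and 0.18, the latter at an FDR of 0.0413 that was lost in 6 of the 12 fits with a library left out. Eif1ad, counted in this group although a role in scanning is not established here, fell by 0.90 and 0.92. Eif5, the GTPase activator of eIF2, fell by 0.30 in BMP and gave -0.12 in BMP/FGF (FDR 0.0937).

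The joining factors were among the least changed. Eif5b, the GTPase of subunit joining, fell by 0.22 in BMP (edgeR FDR 0.0171) and gave -0.01 in BMP/FGF (FDR 0.924). Eif6, which keeps free large subunits apart from small ones, fell by 0.18 and 0.19, and in BL6 alone passed in neither medium (FDR 0.384 and 0.25). Of the methyltransferases of elongation factors, Eef1aknmt fell by 0.62 and 0.74 and Eef1akmt2 rose by 0.32 (FDR 0.00241) and 0.21 (FDR 0.0322), the latter lost in 4 of 10 other settings, among them DESeq2's Wald test (FDR 0.0589), and in 5 of the 12 fits with a library left out. Eef1akmt1 and Eef2kmt fell by 0.51 and 0.22 in BMP and did not pass in BMP/FGF. The 3 other untested members, besides Eif2s3y, were Eef1akmt3 with at most 2 counts, Eif4e1b with at most 6 counts except 26 in BL6 replicate 2 in BMP, and Eif4ebp3 with 12 and 32 counts in the BL6 replicates in BMP/FGF, 3 in BL6 replicate 2 in BMP and 0 elsewhere.

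Between the 2 quiescent media the members differed less than in either comparison with EGF/FGF. In BMP/FGF against BMP, 18 of 60 rose, 3 fell and 39 passed in neither direction. The background was 20.1% higher and 21.3% lower, against 30% and 5% of the members, and the median was 0.04 over members and -0.0035 over all genes. With library size as the only scaling, 12 members rose and 5 fell, and the range with a library left out was 13 to 18 and 3 to 4. With library size only, the median was -0.0054 over members and -0.048 over all genes. The share of all genes called was not counted under that scaling, so whether the excess of rises holds there is not known. The comparison shares the BMP libraries with the first one above, so the values against EGF/FGF are set beside those between the quiescent media.

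Of the 18 members that rose, 7 belong to the eIF2 and eIF2B groups. Of the 5 tested genes of eIF2 and tRNA loading 4 rose, with Eif2s2 higher by 0.37 (SE 0.076, edgeR FDR 0.00083), Eif2s1 by 0.35 (SE 0.075, FDR 0.00115), Eif2s3x by 0.23 (SE 0.052, FDR 0.00195) and Eif2d by 0.20 (FDR 0.0337). Of the 5 eIF2B genes 3 rose, Eif2b2 by 1.14, Eif2b3 by 0.36 (SE 0.10, FDR 0.00791) and Eif2b4 by 0.21 (FDR 0.0218). In eEF1, Eef1b2 was higher by 0.45 (SE 0.090, FDR 0.00078), Eef1e1 by 0.37 (FDR 0.00075) and Eef1a1 by 0.23 (FDR 0.0358). In BMP against EGF/FGF the fitted values were -1.12 for Eif2s2, -1.57 for Eif2s1, -0.61 for Eif2s3x, -0.12 for Eif2d, -0.81 for Eif2b2, -0.63 for Eif2b3, -0.33 for Eif2b4, -1.59 for Eef1b2, -1.44 for Eef1e1 and -0.89 for Eef1a1. The rise of Eif2b3 did not pass in ANS4 alone (FDR 0.0655), nor did that of Eif2d (FDR 0.576), and that of Eif2b4 did not pass in BL6 alone (FDR 0.302). The Eef1a1 call was lost in 3 of 10 other settings, among them library size as the only scaling (FDR 0.0758), and in 6 of the 12 fits with a library left out.

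In eIF3, Eif3j1 rose by 0.52 (SE 0.066, edgeR FDR 8.16e-06), Eif3m by 0.28 and Eif3g by 0.26, and Eif3b fell by 0.26 (SE 0.063, FDR 0.00353), although not in BL6 alone (FDR 0.175). In eIF4F, Eif4e was higher by 0.23 (FDR 0.0097) and no other gene passed, although Eif4g2 passed as a fall with library size only (FDR 0.0493) and with DESeq2's Wald test (FDR 0.0198). Eif4a1 and Eif4a2 gave 0.03 and -0.02, Eif4g1 -0.01 and Eif5a -0.02. The other members that rose were Eef1akmt1, Eef2k, Eif5 and Eif5b, by 0.18 to 0.35. In BMP against EGF/FGF the fitted values were -0.47 for Eif3j1, -0.57 for Eif3m, -0.99 for Eif3g, -0.71 for Eif3b, -1.26 for Eif4e, -0.51 for Eef1akmt1, 0.11 for Eef2k, -0.30 for Eif5 and -0.22 for Eif5b. In ANS4 alone the rises of Eif3m (FDR 0.0550), Eef1akmt1 (FDR 0.343) and Eif5 (FDR 0.163) did not pass, nor in BL6 alone that of Eif5b (FDR 0.431), and that of Eef1akmt1 was also lost without BL6 replicate 1 in BMP/FGF (FDR 0.0526). Eef1a2 was lower by 0.93 (SE 0.25, FDR 0.00716), as 1.49 in ANS4 and 0.28 in BL6 (FDR 0.42 in BL6 alone). All 12 tested markers of neuroblasts and young neurons fell too. In ANS4 the sum over the 14 markers went from 1792 and 1696 CPM in BMP to 1273 and 1276 in BMP/FGF. In BL6 it went from 2651 and 2567 to 1222 and 1169. The larger fall of the markers was thus in the line with the smaller fall of Eef1a2.

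The direction of the fitted change was the same in ANS4 alone and BL6 alone for 59 of 60 members in BMP, 58 in BMP/FGF and 42 in BMP/FGF against BMP. The share over all genes was not counted, so this agreement is not shown to be particular to the members. An interaction passed for 1 member in BMP (Eef1a1) where 9.02% of all genes did, for 2 in BMP/FGF (Eef1a1 and Eif2b2) where 4.98% did, and for 3 in BMP/FGF against BMP (Eef1a2, Eif1a and Eif4g3) where 13.5% did. Eif1a rose between the quiescent media by 0.37 in BL6 and gave -0.0022 in ANS4 (interaction 0.37, SE 0.11, edgeR FDR 0.0356). Eif4g3 gave 0.31 in ANS4 and -0.11 in BL6 (interaction -0.42, SE 0.10, FDR 0.00968). Under 6 other settings the interaction was lost in 3 for Eef1a2, in 2 for Eif1a and in 0 for Eif4g3. In the 12 fits with a library left out the interaction was lost in 6 for Eef1a2, in 4 for Eif1a and in 3 for Eif4g3. In EGF/FGF, 3 members differed in level between the lines, where 6.75% of all genes did: Eef1a1, Eef2k and Eif2b2, each lower in BL6. The difference of Eef2k was lost in 7 of the 12 fits with a library left out and in 3 of 6 other settings.

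Genes that work with these factors were counted by lists. Over all tested genes, 38.8% fell and 40.8% rose in BMP, and 38% fell and 40.9% rose in BMP/FGF. The cytosolic aminoacyl-tRNA synthetases, which charge the tRNAs that eEF1A carries, were lower for most members found: of 22 tested, 21 fell in BMP and 20 in BMP/FGF, with medians of -0.84 and -0.86 and the largest fall in Vars, by 1.35 and 1.66. Of 14 partners of the poly(A) tail and of reinitiation 10 fell and 3 rose in BMP, Pabpc4 by 1.38, Larp1 by 1.16 and Pabpc1 by 0.98 downward, while Pdcd4, an inhibitor of eIF4A, rose by 1.20 in BMP and 1.19 in BMP/FGF. Of 8 genes of termination, recycling and rescue 4 fell in BMP and 6 in BMP/FGF, and 0 rose in either. Abce1 fell by 1.21 and 1.02, and the release factors Etf1 by 1.06 and 0.96 and Gspt1 by 1.03 and 0.89.

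Of 15 tested genes of hypusine, diphthamide and selenocysteine, 11 fell and 2 rose in each medium, with Dph5 lower by 1.25 and 1.17. Of 10 mitochondrial translation factors 6 fell and 1 rose in each medium, Tsfm by 1.25 and 1.21 downward. Among regulators the counts were mixed, and the shares that rose in BMP were near the 40.8% of all genes. Of 13 genes of mTORC1 and of the eIF4E kinases 5 rose and 3 fell in BMP (median 0.11), Tsc2 rising by 0.53 and Rps6kb1 falling by 0.53. Of 8 tested eIF2α kinase and phosphatase genes 3 rose and 3 fell, Ppp1r15a higher by 0.96, Impact by 0.86 and Eif2ak4 lower by 0.69, and between the quiescent media Eif2ak2 was 0.99 higher in BMP/FGF. Of 12 targets of the stress factor ATF4, with Atf4 among them, 5 rose and 6 fell in BMP, Asns lower by 1.73, Atf4 by 1.28 and Trib3 by 2.09, and Chac1 higher by 1.70.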

How the data were processed

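Total RNA of mouse NSC cultures was sequenced from 12 libraries (low input protocol, BGISEQ-500RS, RIN of at least 9.6). The authors deposited estimated counts per gene as whole numbers, made with Trim Galore 0.5.0 for trimming and pseudoalignment to mouse mm10 transcripts by kallisto 0.44.0. A second table, deposited by the authors, holds log2 values from the regularized logarithm of DESeq2 1.27.32 and was used only for an alternative test. kallisto divides reads that fit several transcripts by estimation, so levels of genes with near-identical copies are uncertain.

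The members and lists were chosen with earlier results of these data known. Columns were matched to condition, line and replicate by their labels, and all per-sample columns were used. Genes passing edgeR's filterByExpr, grouped by condition, were normalized by TMM and fitted with glmQLFit (edgeR 4.0.16, R 4.3.3) on all 12 libraries, with condition and line as terms. Contrasts were tested with glmQLFTest, two-sided, adjusted by Benjamini-Hochberg over all 13312 genes. The difference between lines was tested as a line by condition interaction. Exact permutation tests, two-sided, on log2(CPM + 0.1) used all 70 divisions of 8 libraries, with a smallest p of 0.0286. The scripts were tested on simulated data.

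Each comparison names up to 10 rises and 10 falls by size among called members with 1 direction in both lines, fixed paralogue sets, members with an interaction and members that no comparison calls, and lists give up to 4 of the largest changes. Per-kilobase levels used the median length over a gene's transcripts (GENCODE vM21, GRCm38, the build of mm10). Promoter windows, from 250 bases before to 50 after the start, came from RefSeq (GRCm38.p6) and matched 49 of 64 members, and the letters after the start were checked against annotated transcripts (95 of 95 matched). The start windows of Eef2 and Eif2b2 and the E-box stretches were chosen after their values were seen. Sharing between genes was counted over stretches of 31 bases, the default of kallisto, in GENCODE transcripts on both strands. Alternatives were another scaling, test, filter, covariate or set of libraries, with limma 3.58.1 and DESeq2 1.42.0. Protein sequences were not used here.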

Additional observations from a re-analysis of the deposited data

Results flagged for a closer look

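In 180 groups of 4 libraries (60 members in 3 media), 16 had a library whose gap to the nearest other, as a share of the group's range, was above Dixon's 95% critical value, and chance flags about 1 in 20 such groups. In BMP, BL6 replicate 2 was low for Eef1b2 (96.3 CPM, others 124 to 128) and Eif3b (151 CPM, others 165 to 167) and high for Eif4ebp1 (30.2 CPM, others 21.3 to 22.1). BL6 replicate 1 was low for Eif4a3 in BMP (89.4 CPM, others 102 to 104). ANS4 replicate 2 was high in BMP for Eif3g (56.6 CPM, others 55.5 to 55.6) and Eif3k (92.8 CPM, others 81.8 to 82.5).

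In EGF/FGF, ANS4 replicate 2 was high for Eif2d (46.1 CPM, others 39.1 to 39.8) and Eif3i (115 CPM, others 86.4 to 89.6), and BL6 replicate 1 was low for Eif4a1 (1357 CPM, others 1443 to 1448) and high for Eif4ebp2 (99.1 CPM, others 87.8 to 88.7). BL6 replicate 2 was low for Eif4b (530.3 CPM, others 560.3 to 566). In BMP/FGF, BL6 replicate 1 was low for Eif2s2 (140.4 CPM, others 158.5 to 162) and Eif4e2 (63.3 CPM, others 68.3 to 69.1) and high for Eif3e (167 CPM, others 161 to 162). ANS4 replicate 1 was high for Eif1ad (35.6 CPM, others 30.1 to 30.4) and low for Eif4ebp2 (76.6 CPM, others 82.1 to 82.7).

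The change differed between the lines by the interaction test for 5 members. The change in BL6 minus that in ANS4 was 0.37 for Eef1a1 in BMP against EGF/FGF, and 0.41 for Eef1a1 and 0.35 for Eif2b2 in BMP/FGF against EGF/FGF. In BMP/FGF against BMP it was 1.21 for Eef1a2, 0.37 for Eif1a and -0.42 for Eif4g3.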

How the results depend on the processing

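The counts of members that fell or rose against EGF/FGF stayed within 1.5 times the reported ones under every alternative run. In BMP/FGF against BMP, 5 members fell rather than 3 with library size only and with DESeq2's Wald test, and the median with library size only was -0.005, against 0.04. Medians moved by more than the spread between libraries to -0.46 in BMP on the rlog values, to -0.54 in BMP in BL6 alone and to -0.43 in BMP/FGF in ANS4 alone. With a library left out, the medians ranged from -0.529 (without ANS4 replicate 1 in BMP) to -0.455 (without BL6 replicate 2 in BMP) for BMP, and for BMP/FGF from -0.402 to -0.361. The counts of members with a line difference were the least stable. With a library left out the range was 0 to 10 for BMP, 0 to 7 for BMP/FGF and again 0 to 7 between the quiescent media, and members differing between the lines in EGF/FGF ranged from 1 to 5. The 10 came without BL6 replicate 1 in BMP, and 4 without BL6 replicate 2 in BMP. Line differences numbered 2 in BMP with library size only and on the rlog values, 1 between the quiescent media with no filter, and the level difference in EGF/FGF numbered 1 on the rlog values. The cause was not tested.

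The labels do not say that equal replicate numbers share a culture or day. The correlation of replicate differences between media lay between -0.07 and 0.05 over all genes and between -0.11 and 0.35 over the members, so not every pair deviated together. With the replicate number within line as a block, 50 members fell and 5 rose in BMP, 44 fell and 6 rose in BMP/FGF, and 14 rose and 3 fell between the quiescent media. With the block, 1 line difference remained in BMP/FGF, that of Eef1a1, and 1 level difference in EGF/FGF, that of Eif2b2. Exact permutation tests gave p under 0.05 for 49, 50 and 22 members in the 3 comparisons, with a pseudocount of 0.1 or 1 CPM. The share of all genes was not counted for these tests or for the block, so these counts have no background beside them. Members under about 5 CPM, Eef1a2, Eif4e3 and Eif4a3l1, rest on few counts.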
